A study of Mus musculus with 36 samples.

Results

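The genes described here are 10 markers of astrocyte identity and reactivity in the mouse hippocampus. They were taken as the rows of the deposited count table whose symbol was Gfap, Vim, Aqp4, Aldh1l1, Slc1a2, Slc1a3, Gja1, Glul, S100b or Kcnj10. All 10 were found once among the 78298 gene identifiers of the table, and all 10 were among the 21172 genes with enough counts to be tested. Bulk RNA was sequenced from hippocampal tissue of 36 mice in 6 groups of 6, each with 3 females and 3 males. Mice labelled as Shank3 knockout (Shank3 KO), as Fmr1 knockout (Fmr1 KO) and as wild type (WT) each made up a vehicle group and a group given cannabidiol (CBD), a plant cannabinoid. Injections were subcutaneous over 7 days, with CBD at 5 mg/kg in males and 50 mg/kg in females, so sex and dose cannot be told apart among treated mice. The sources used here do not give strain, age, litter or the knockout alleles. Fmr1 encodes the RNA-binding protein FMRP and Shank3 a scaffold of the postsynaptic density.

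Astrocytes take up the glutamate and potassium that neurons release, pass water along endfeet on blood vessels and share ions and metabolites through gap junctions. Slc1a2 (GLT-1) and Slc1a3 (GLAST) are the glutamate transporters, and Glul (glutamine synthetase) turns the glutamate they bring in into glutamine. Kcnj10 (Kir4.1) is the inward rectifier that buffers potassium, Aqp4 the water channel of the endfeet and Gja1 (connexin 43) the main gap junction protein. Aldh1l1, an enzyme of folate metabolism, and S100b, a calcium-binding protein, are cytoplasmic markers. Gfap and Vim encode intermediate filaments that accumulate when astrocytes respond to injury or inflammation, a response in which the transcription factor STAT3 takes part. In bulk RNA, fewer astrocytes and less RNA per astrocyte cannot be told apart.

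The start regions of 4 of these genes are shown because Gfap and Vim are the reactivity markers and Slc1a2 and Slc1a3 were the pair whose levels moved together most closely over the libraries. Each runs from 250 bases before to 25 bases after the annotated start, 5′ to 3′ on the gene's strand, from RefSeq on build GRCm38.p6. Capitals mark matches to 3 motifs on either strand, TTCNNNGAA (the STAT motif), TGANTCA (the AP-1 motif) and TATAAA (the TATA box), none of which overlap one another here. The Gfap window is chr11:102897176-102897450 on the minus strand, Vim chr2:13574061-13574335 on the plus strand, Slc1a2 chr2:102706188-102706462 on the plus strand and Slc1a3 chr15:8710783-8711057 on the minus strand.
Gfap: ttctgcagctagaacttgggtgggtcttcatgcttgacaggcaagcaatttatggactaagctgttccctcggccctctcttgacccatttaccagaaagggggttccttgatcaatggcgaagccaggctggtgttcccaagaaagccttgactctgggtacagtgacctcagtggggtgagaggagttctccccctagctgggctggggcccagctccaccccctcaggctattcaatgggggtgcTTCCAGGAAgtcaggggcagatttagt
Vim: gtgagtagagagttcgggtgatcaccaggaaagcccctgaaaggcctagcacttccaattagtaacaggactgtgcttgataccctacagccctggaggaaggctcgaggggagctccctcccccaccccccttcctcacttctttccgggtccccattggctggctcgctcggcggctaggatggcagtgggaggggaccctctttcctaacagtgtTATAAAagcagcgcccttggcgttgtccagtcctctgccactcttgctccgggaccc
Slc1a2: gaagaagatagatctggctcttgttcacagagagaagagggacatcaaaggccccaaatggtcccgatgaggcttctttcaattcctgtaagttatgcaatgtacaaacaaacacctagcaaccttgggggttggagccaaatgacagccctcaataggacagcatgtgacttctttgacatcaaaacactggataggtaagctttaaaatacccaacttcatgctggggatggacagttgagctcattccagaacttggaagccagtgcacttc
Slc1a3: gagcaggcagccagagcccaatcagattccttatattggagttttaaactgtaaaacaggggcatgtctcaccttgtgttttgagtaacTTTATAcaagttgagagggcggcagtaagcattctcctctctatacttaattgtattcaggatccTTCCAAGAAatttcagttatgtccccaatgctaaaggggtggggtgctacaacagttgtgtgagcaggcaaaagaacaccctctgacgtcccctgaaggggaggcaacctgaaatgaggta
The Gfap match, TTCCAGGAA, lay across the start itself, and the Slc1a3 match, TTCCAAGAA, began 96 bases before it. Over windows of 300 bases, 9 of the 10 genes were searched, and the STAT motif was found in 2 of them (Gfap and Slc1a3), the TATA box in 2 (Vim and Slc1a3) and the AP-1 motif in 1 (Gja1). The TATA match of Vim began 32 bases before the start on the gene's strand. That of Slc1a3, TTTATA, began 161 bases before the start and matched on the other strand. Of all 32851 mouse windows of that length, 8.3% held the STAT motif, 13.6% the TATA box and 7.81% the AP-1 motif. These are matches of letters, and no binding was measured.

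Library totals ran from 11655697 to 33228089 counts. The targeted genes were lower in their own lines, Fmr1 at 41.1 ± 2.89 CPM (counts scaled to library size; SD, n = 6) in Fmr1 KO against 73.9 ± 4.86 in WT vehicle mice, and Shank3 at 168 ± 8.75 in Shank3 KO against 265 ± 19.5 (adjusted p = 4.87e-09 and 0.0103, edgeR). Tissue markers varied between libraries. The summed level of 10 hippocampal markers was lowest, at 495 CPM, in Fmr1 KO CBD replicate 3, where the median of all libraries was 1018, and 17 oligodendrocyte markers summed to 707 CPM there against a median of 3142. The mean log2 CPM of 11 striatal markers was at least 3.092 in 8 libraries and at most 2.52 in the others. The 8 were Shank3 KO vehicle replicates 2, 3 and 4, Shank3 KO CBD replicate 2, WT CBD replicates 3 and 6, Fmr1 KO vehicle replicate 4 and Fmr1 KO CBD replicate 3. Values without these 8 libraries, a choice made after seeing the data, are given beside many of the differences below. The deposited gene lengths are whole gene spans, introns included. Among protein-coding genes whose exons lay wholly under other genes in an older mouse annotation, 85.2% of 1240 were listed at 0. Of the members, S100b had 83% of its exon bases under the neighbouring gene Dip2a and Aldh1l1 had 34.9% under 3 predicted genes, so their counts may cover only part of each gene. Among other astrocyte genes, the transcription factor Sox9 was listed at 0 and is not read.

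No difference in any of the 10 genes passed the test between genotypes, treatments or sexes. In 150 tests, 10 genes in each of 15 comparisons, none reached an adjusted p under 0.05 (edgeR's quasi-likelihood test, Benjamini-Hochberg over all genes tested). An unadjusted p under 0.05 was reached by 3, which is 2% of the tests. Of all genes tested, 1.65% to 7.4% reached it, depending on the comparison. For each of the 10 genes, the ranges of the libraries overlapped in all 15 pairs of the 6 groups. How often the ranges of other genes overlap was not counted, so this is not read as particular to the members. The confidence intervals given below show which sizes of change the data still allow.

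**Figure D1:**
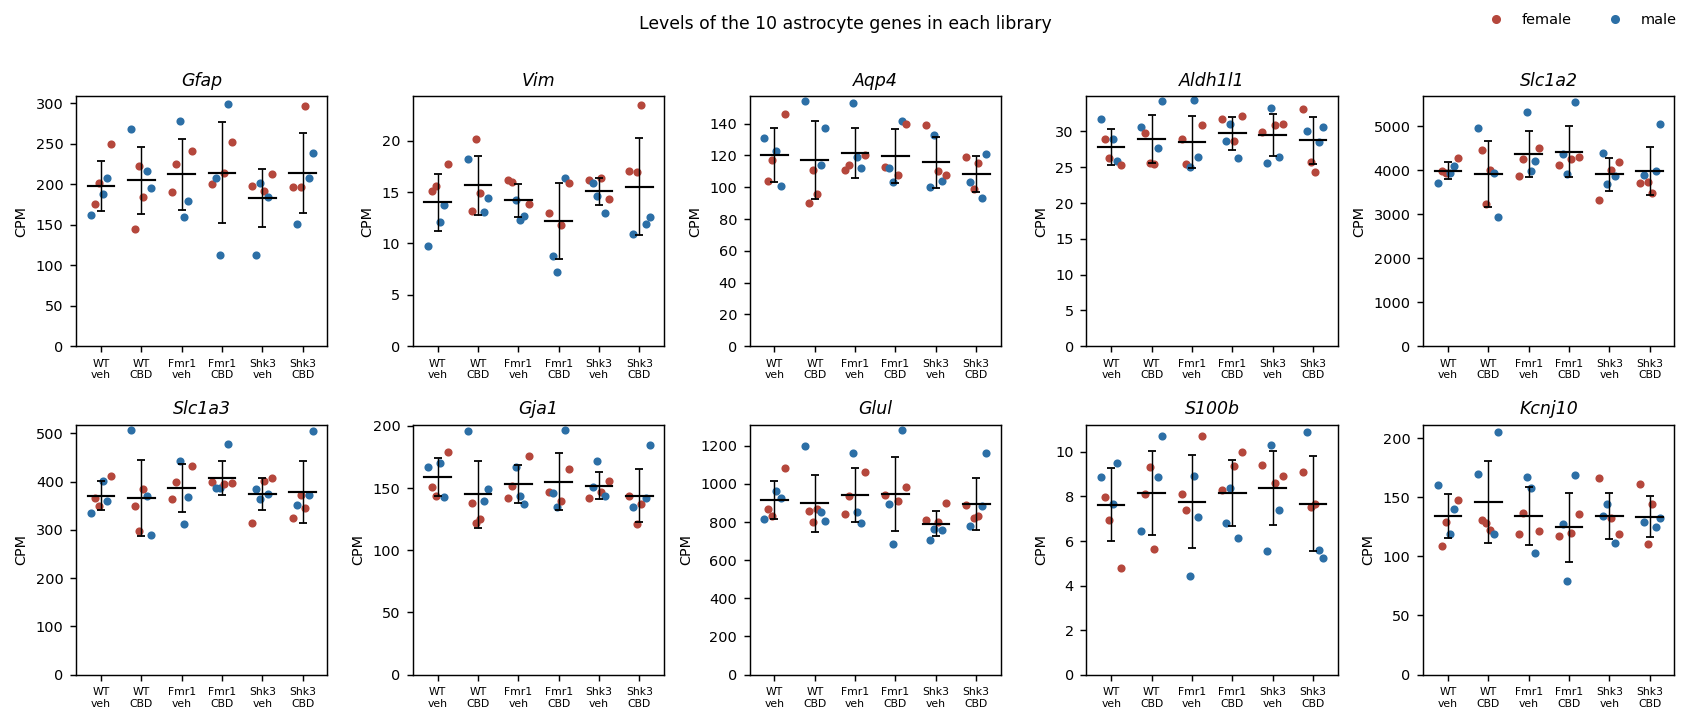
CPM of the 10 genes in each of 36 libraries, by group (veh, vehicle; Shk3, Shank3 KO; Fmr1, Fmr1 KO), with females in red and males in blue; bars are the mean and SD of 6 libraries. The groups overlap for every gene, and Gfap ranges from 112 to 299 CPM within the Fmr1 KO CBD group alone.

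Per length, Glul and Slc1a2 had the highest levels, and their order turned with the length used. Over the deposited length, the whole gene span, Glul stood at 91.8 ± 14.1 CPM per kilobase (SD, n = 36 libraries), Slc1a2 at 31 ± 4.01 and Gfap at 15 ± 3.18, and the ranges of these 3 did not overlap. Gja1 (6.01 ± 0.75), Aqp4 (5.45 ± 0.781), Slc1a3 (4.97 ± 0.648) and Kcnj10 (4.09 ± 0.72) followed, and their ranges overlapped one another. Vim (1.62 ± 0.348) and S100b (1.09 ± 0.235) overlapped as well, and Aldh1l1 was lowest at 0.254 ± 0.0252. Over the exon bases of an older annotation the order differed, since Aldh1l1 (114 kb) and Slc1a2 (132 kb) have long introns. Slc1a2 was then first at 312 ± 40.4 CPM per kilobase of exon and overlapped Glul at 270 ± 41.5. Gfap (48.4 ± 10.2) and Slc1a3 (44.6 ± 5.82) overlapped, and Kcnj10 (24.9 ± 4.38), Aqp4 (18.8 ± 2.69) and Gja1 (14.7 ± 1.84) came next. Aldh1l1 (6.4 ± 0.636) and S100b (5.36 ± 1.16) overlapped, and Vim (3.04 ± 0.653) had the lowest mean. The range of Vim overlapped that of S100b (2.99 to 7.34) but not that of Aldh1l1, so Aldh1l1 was lowest over the gene span only. The exon lengths of S100b and Aldh1l1 include bases under other genes, where counts may be missing. The sources used here do not say whether the authors counted reads over exons or whole genes. Of protein-coding genes with introns, the deposited length matched the gene span for 98.1% and the exons for 0.0295%. If reads were counted over whole genes, levels per exon base set counts from introns against exon lengths.

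The spread over single libraries differed between the genes. The coefficient of variation over the 36 libraries was 21.6% for S100b, 21.5% for Vim and 21.1% for Gfap, and 9.94% for Aldh1l1. The other 6 lay between 12.5% (Gja1) and 17.6% (Kcnj10). Over the 11342 genes with a mean of at least 5 CPM the median was 13.9%, with quartiles of 10% and 19.2%, so the 2 reactivity genes and S100b lay above the upper quartile and Aldh1l1 below the lower one. The group means of Gfap spanned a ratio of 1.17 and those of Vim 1.29, and single libraries spanned 2.68 and 3.27. Means of 6 libraries cannot span more than the libraries themselves, so these ratios only give sizes.

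Gfap, the filament most used to read astrocyte reactivity, overlapped between all 6 groups. In WT vehicle mice it ran from 162 to 250 CPM (median 195), and in WT CBD mice from 145 to 268 (median 206). Fmr1 KO vehicle mice ran from 159 to 278 (median 207) and Fmr1 KO CBD mice from 112 to 299 (median 210). Shank3 KO vehicle mice ran from 113 to 212 (median 195) and Shank3 KO CBD mice from 151 to 297 (median 201). The 6 medians therefore lay within 15 CPM of one another, while the lowest and highest library of all were both Fmr1 KO CBD mice, replicates 3 and 5. Against WT under vehicle, the log2 fold change of Gfap was 0.11 for Fmr1 KO (95% interval -0.26 to 0.47, adjusted p = 1) and -0.11 for Shank3 KO mice (-0.48 to 0.26, adjusted p = 0.913; edgeR). Without the 8 libraries of high striatal markers these were 0.18 and 0.01. Over the 3 genotypes, the mean CBD effect on Gfap was 0.10 (SE 0.105, interval -0.11 to 0.31, adjusted p = 1), which allows a fold between 0.925 and 1.24. In Shank3 KO mice the CBD value was 0.22 (interval -0.14 to 0.59, adjusted p = 0.963, edgeR), and it was 0.12 without Shank3 KO CBD replicate 4 and likewise 0.12 without Shank3 KO vehicle replicate 2, the library of lowest total count.

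Vim, which encodes vimentin and is also made by endothelial, ependymal and progenitor cells, gave the smallest p of any member. Under CBD it ran from 13.1 to 20.2 CPM (median 14.6) in WT mice and from 7.18 to 16.4 (median 12.4) in Fmr1 KO mice. Of the 6 Fmr1 KO values, 4 (7.18, 8.73, 11.8 and 13 CPM) were below every WT value, and the other 2 were within the WT range. The log2 fold change of Fmr1 KO against WT under CBD was -0.38 (SE 0.15, interval -0.68 to -0.07, unadjusted p = 0.0166), which did not pass over all genes (adjusted p = 0.654, edgeR). It was -0.54 (unadjusted p = 0.000436, adjusted p = 0.538) without Fmr1 KO CBD replicate 5 and -0.21 (unadjusted p = 0.203, adjusted p = 1) without the 8 libraries of high striatal markers. Leaving out Fmr1 KO CBD replicate 3 alone, the lowest library at 7.18 CPM, moved the value by no more than its SE. Markers of oligodendrocytes moved with Vim. All 17 had lower values in the same comparison, each with an unadjusted p under 0.05 but none past the test, with a median of -0.71, and their summed level ran from 707 to 3301 CPM in Fmr1 KO CBD and from 2751 to 5303 in WT CBD mice. All 11 striatal markers had lower values there too (median -1.73, none called), with sums of 334 to 748 CPM in Fmr1 KO CBD and 260 to 1776 in WT CBD mice. Without the 8 libraries, the oligodendrocyte markers had a median of -0.27 (17 of 17 lower) and the striatal markers of -0.11 (9 of 11 lower). The part of either list in the Vim value was not tested. Under vehicle, the difference of Vim from WT was 0.04 for Fmr1 KO mice and 0.12 for Shank3 KO mice (adjusted p = 1 and 0.894, edgeR), and without the 8 libraries it was 0.05 and 0.02.

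Vim was also higher in vehicle females than in vehicle males before adjustment. WT vehicle females averaged 16.1 ± 1.43 CPM against 11.8 ± 1.97 in males (SD, n = 3), Fmr1 KO vehicle females 15.4 ± 1.35 against 13.1 ± 1, and Shank3 KO vehicle females 15.6 ± 1.11 against 14.5 ± 1.47. The female mean was the higher in all 3 genotypes. The mean difference was 0.26 on the log2 scale (interval 0.02 to 0.51, unadjusted p = 0.0369) and did not pass over all genes (adjusted p = 1, edgeR). Gfap differed by 0.18 in the same direction (interval -0.14 to 0.49, adjusted p = 1).

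Glul, at the exit of the glutamate pathway, had the widest spread of group means among the homeostatic genes. Shank3 KO vehicle mice ran from 705 to 900 CPM (median 783), WT vehicle mice from 817 to 1082 (median 899) and Fmr1 KO vehicle mice from 794 to 1161 (median 895). Of the 6 Shank3 KO vehicle libraries, 5 were below every WT value and 3 below every Fmr1 KO value. With CBD the Shank3 KO mice ran from 780 to 1160 (median 860). Fmr1 KO against Shank3 KO under vehicle gave a log2 difference of 0.25 (interval 0.00 to 0.50, unadjusted p = 0.0495, adjusted p = 0.869), and Shank3 KO against WT gave -0.21 (interval -0.46 to 0.04, adjusted p = 0.853; edgeR). All 11 striatal markers had higher values in Shank3 KO than in WT vehicle mice (median 1.77, none called), with sums of 534 to 1761 against 282 to 695 CPM, and their part in the Glul value was not tested. Without the 8 libraries of high striatal markers, which leave 3 Shank3 KO vehicle mice, the Shank3 KO value was -0.14 and the Fmr1 KO against Shank3 KO value 0.21. The CBD effect in Shank3 KO mice was 0.18 (interval -0.07 to 0.43, adjusted p = 0.963), and it differed from that in WT mice by 0.21 (interval -0.15 to 0.56, adjusted p = 0.912). These were 0.14 and 0.11 without the 8 libraries.

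The glutamate transporters gave no call. Slc1a2 ran from 3710 to 4283 CPM (median 3962) in WT vehicle, from 3880 to 5335 (median 4232) in Fmr1 KO vehicle and from 3327 to 4390 (median 3944) in Shank3 KO vehicle mice. Fmr1 KO mice had the highest group means, with log2 differences from WT of 0.13 under vehicle and 0.17 under CBD, neither past the test (adjusted p = 1 and 0.752, edgeR). Slc1a3 gave 0.06 and 0.16 (adjusted p = 1 and 0.773). With the 8 libraries left out, Slc1a2 was at 0.16 and 0.07 and Slc1a3 at 0.13 and 0.05, so the values under CBD were the smaller ones. The mean CBD effect was 0.00 for Slc1a2 (interval -0.13 to 0.14) and 0.02 for Slc1a3 (-0.11 to 0.15), so folds beyond 1.1 and 1.11 upward lay outside the 95% intervals. Both were 0.07 without the 8 libraries.

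Kcnj10, Aqp4 and Gja1, the channels of endfeet and of the coupled astrocyte network, gave no call either. Kcnj10 was -0.22 in Fmr1 KO against WT under CBD (adjusted p = 0.751) and -0.01 without the 8 libraries of high striatal markers, of which Fmr1 KO CBD replicate 3 had 79.2 CPM, the lowest of all. Gja1 was the member with the smallest p for the mean CBD effect, -0.07 (SE 0.0582, unadjusted p = 0.256, adjusted p = 1), and was -0.03 without the 8 libraries. Its value in females given 50 mg/kg was -0.17 (interval -0.34 to 0.00, unadjusted p = 0.0544, adjusted p = 0.984), against 0.03 in males given 5 mg/kg, and the difference of -0.20 did not pass (adjusted p = 0.659). The males were at 0.14 and the difference at -0.29 (unadjusted p = 0.0453, adjusted p = 0.559, edgeR) without the 8 libraries. The lowest group mean of Aqp4 was in Shank3 KO CBD mice, at 108 CPM (range 93 to 121, median 109). Shank3 KO vehicle mice had the same median (range 99.9 to 139, median 109), and WT vehicle mice ran from 101 to 146 (median 120). The lowest single library was WT CBD replicate 2, at 90.1 CPM. With CBD, Aqp4 in Shank3 KO mice changed by -0.09 on the log2 scale, and by -0.10 without the 8 libraries. The cytoplasmic markers Aldh1l1 and S100b had group means of 27.8 to 29.7 and 7.62 to 8.37 CPM. Aldh1l1 had the narrowest interval of the 10 for the mean CBD effect, -0.08 to 0.13 around 0.02.

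**Figure D2:**
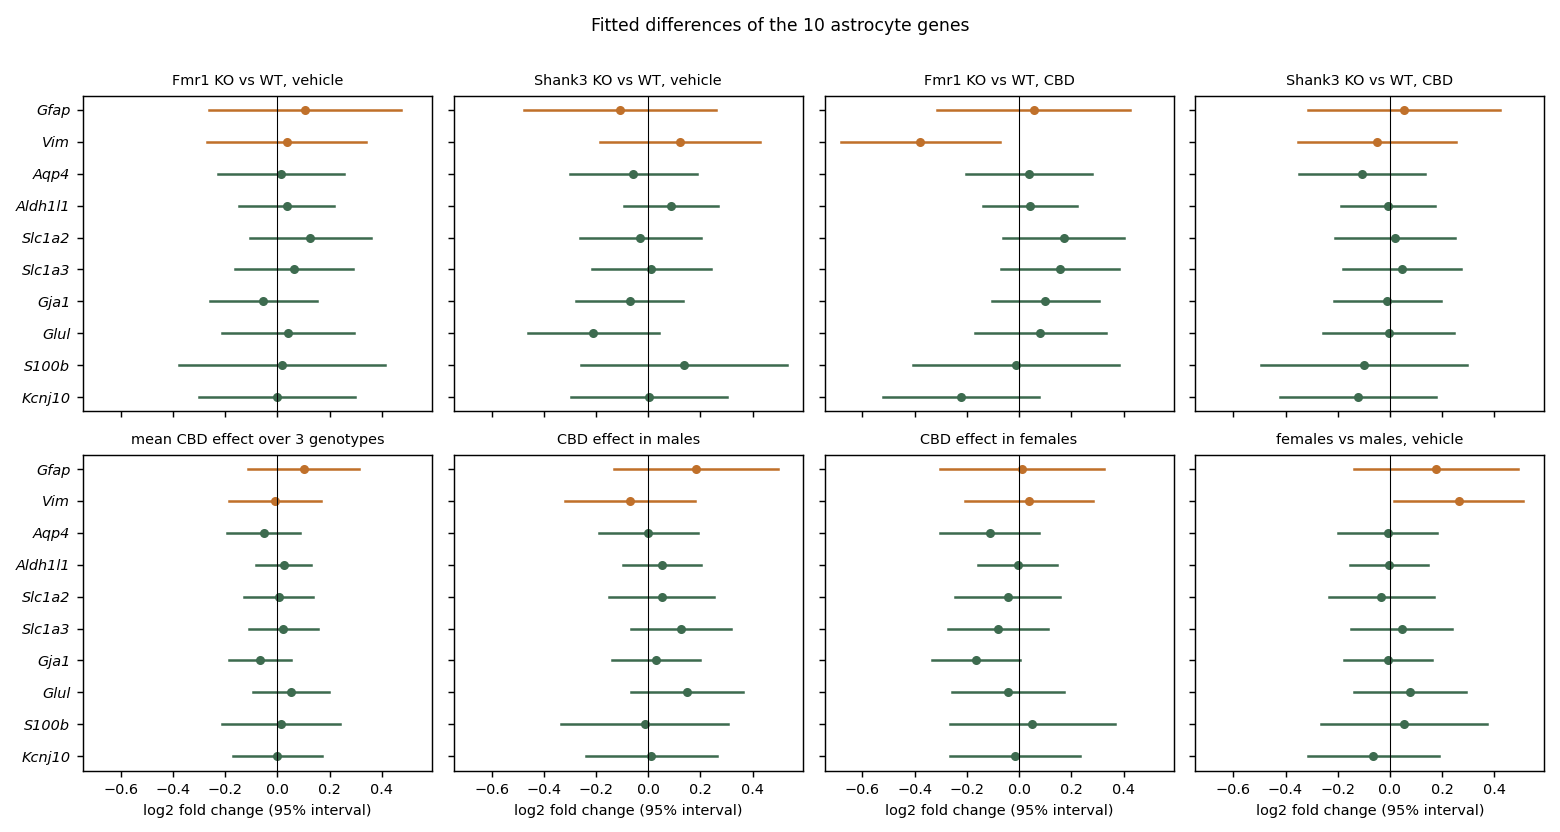
Log2 fold changes (points) with 95% intervals (lines) of the 10 genes in 8 comparisons from edgeR, reactivity genes in orange and homeostatic genes in green. No point lies beyond 0.38 from 0, and only the Vim intervals in Fmr1 KO against WT under CBD and in vehicle females against males leave out 0, both unadjusted.

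The counts by comparison read as follows, with the share of all tested genes called beside each. In Fmr1 KO against WT, 8 of 10 members were higher under vehicle (median 0.04) and 7 under CBD (median 0.05), none called, where 0.0283% and 0.0331% of all genes were called. In Shank3 KO against WT, 5 were higher under vehicle (median -0.01) and 3 under CBD (median -0.01), none called, beside 0.0378% and 0.0425% of all genes. Fmr1 KO against Shank3 KO under vehicle had 6 higher, none called, beside 0.00945%. In CBD against vehicle, 5 members were higher in WT mice, 5 in Shank3 KO mice and 7 in Fmr1 KO mice, and 0% of all genes were called in each, with 567, 934 and 558 genes at an unadjusted p under 0.05 (edgeR). Differences of the CBD effect from that in WT likewise called 0% of genes for Fmr1 KO and for Shank3 KO mice, with 635 and 1004 genes before adjustment. The mean CBD effect had 7 members higher (median 0.01), none called, beside 0.0189%. By sex, the CBD effect had 7 members higher in males, beside 0% called of all genes (1476 before adjustment), and 3 higher in females, beside 0.0142%. The female minus male difference of that effect had 2 members higher and 8 lower (median -0.10), beside 0% called (1567 before adjustment). Vehicle females against males had 5 higher, beside 0.0331%. The comparisons with vehicle share control libraries and are not independent of one another. Calls were therefore rare across the whole table, and the members' counts of 0 do not set them apart from other genes.

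Set against the homeostatic genes of the same library, reactivity showed no separation of the groups. The log2 ratio of Gfap to the mean of the 8 homeostatic genes was 0.198 ± 0.222 under vehicle and 0.251 ± 0.251 under CBD in WT mice (SD, n = 6). The values for Fmr1 KO mice were 0.264 ± 0.246 and 0.227 ± 0.355. In Shank3 KO mice it was 0.093 ± 0.276 under vehicle and 0.336 ± 0.342 under CBD. Every group mean lay within 1 SD of each other group's mean. For Vim the ratio was lowest in Fmr1 KO CBD mice, at -3.903 ± 0.344, and between -3.626 and -3.446 in the other groups.

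Beyond the 10 members, 165 of 185 other genes of astrocyte lists were tested. Lcn2, which encodes the iron-siderophore carrier lipocalin 2 and is a marker of reactive astrocytes also made by neutrophils, was the only one called. It rose with CBD by 2.74 on the log2 scale over the 3 genotypes (SE 0.363, adjusted p = 3.37e-05) and by 2.83 in females (adjusted p = 0.00376; edgeR). Counts were small. The 3 WT females given CBD had 44, 67 and 8 counts (1.75, 2.59 and 0.341 CPM), against 9, 1 and 10 counts (0.319, 0.0464 and 0.353 CPM) in WT vehicle females. Fmr1 KO females given CBD had 24, 26 and 54 counts (0.898, 0.968 and 1.56 CPM), against 2, 2 and 6 with vehicle. Shank3 KO females given CBD had 10, 52 and 34 counts (0.343, 1.8 and 1.28 CPM), against 8, 2 and 5 with vehicle. The females given CBD and vehicle overlapped by 1 CBD library in WT mice only. In males the value was 2.97, with 2 to 19 counts given CBD and 0 to 5 given vehicle, and it did not pass (adjusted p = 0.709). The call over the 3 genotypes was lost without the sex term (2.76, adjusted p = 0.0591). The call in females was lost in a fit of the compared groups alone (2.83, adjusted p = 0.0602) and without the 8 libraries of high striatal markers (2.51, adjusted p = 0.191), where the value over the 3 genotypes was 2.41 (adjusted p = 0.0119).

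The 4 genes called for the mean CBD effect were Lcn2, S100a8, S100a9 and Vwf, the last described further below. S100a8 and S100a9 encode the calprotectin subunits of neutrophils and were chosen after their values were seen. They rose by 2.31 (adjusted p = 0.043) and 2.37 (adjusted p = 0.0409, edgeR) over the 3 genotypes. S100a8 averaged 0.979 ± 0.515 CPM in WT CBD females against 0.09 ± 0.0182 in WT vehicle females (SD, n = 3). It averaged 1.08 ± 0.941 against 0.171 ± 0.167 in Fmr1 KO females and 1.83 ± 1.02 against 0.26 ± 0.102 in Shank3 KO females. How far the 2 genes varied with Lcn2 from library to library was not computed. Their calls were lost in edgeR without the sex term (adjusted p = 0.368 and 0.219), with replicate number as a block (0.134 and 0.0927) and without the 8 libraries (0.834 and 0.28). With 1 library left out at a time, they were called in 11 and 14 of 36 fits. Their part in the Lcn2 value was not tested. Gfap was not called beside Lcn2. In females its CBD effect was 0.01 (interval -0.30 to 0.32, adjusted p = 0.999).

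**Figure D3:**
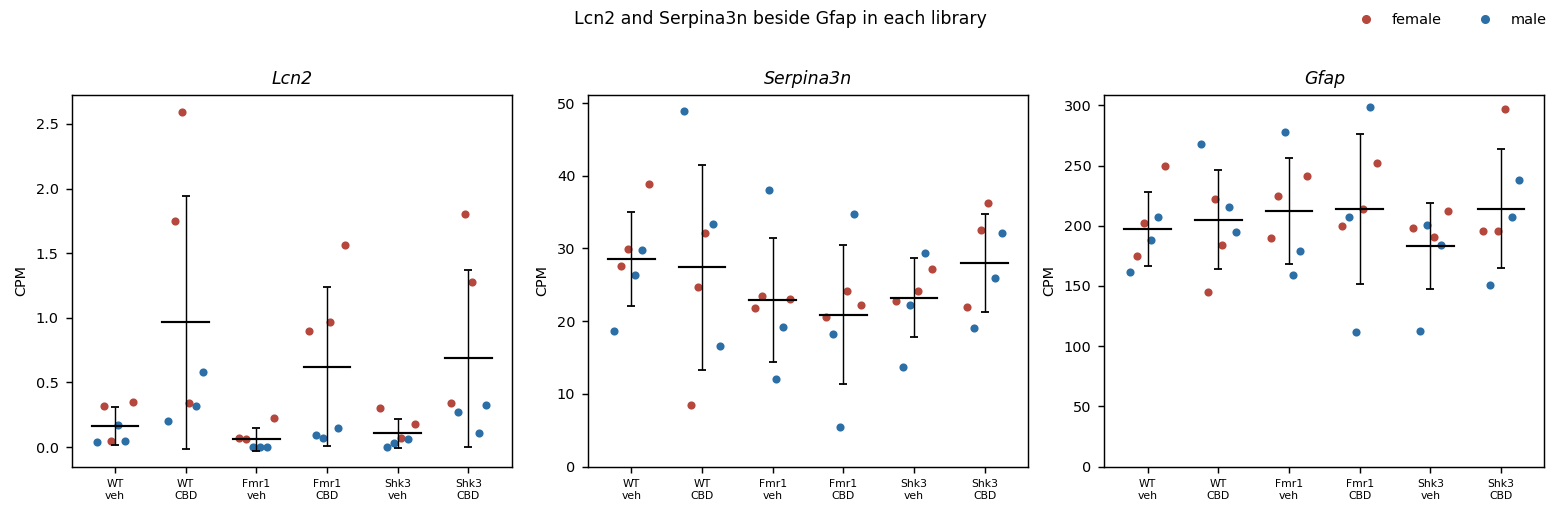
CPM of Lcn2, Serpina3n and Gfap in each of 36 libraries (females red, males blue; bars, mean and SD of 6; veh, vehicle; Shk3, Shank3 KO; Fmr1, Fmr1 KO). Lcn2 is highest in females given CBD, up to 2.59 CPM, while Serpina3n and Gfap show no such split.

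No other gene of the reactive lists was called. Of 9 tested pan-reactive genes, all 9 had higher values for the mean CBD effect (median 0.18, beside 0.01 over all genes), and of these only Lcn2 passed. Without the 8 libraries of high striatal markers 7 of 9 had higher values (median 0.09). Osmr, a receptor subunit for oncostatin M, came next at 0.22 (SE 0.0808, unadjusted p = 0.0104, adjusted p = 1). Serpina3n, a secreted protease inhibitor of reactive astrocytes, was at 0.02 (SE 0.183, adjusted p = 1). Of 10 tested genes of the neuroinflammatory (A1) module, 8 had higher values (median 0.18), led by Fkbp5, a glucocorticoid-induced chaperone, at 0.20 (SE 0.0662, adjusted p = 1). Of 8 tested genes of the ischaemic (A2) module, 3 had higher values (median -0.05). The A1 module was on the other side of 0 in Fmr1 KO against WT mice, with 9 of 10 lower under vehicle (median -0.09) and 9 of 10 lower under CBD (median -0.33), none called. Ggta1, a glycosyltransferase, gave the smallest p there (-0.37 under CBD, unadjusted p = 0.00169, adjusted p = 0.654), and complement C3 was at -1.33 (adjusted p = 0.654). Over all genes the medians were 0.00 in both comparisons. With the 8 libraries left out, 9 of 11 were lower in each, with medians of -0.09 under vehicle and -0.21 under CBD.

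Lists of astrocyte function lay nearer to 0. Of 37 further identity genes, 29 had higher values for the mean CBD effect, with a median of 0.03, none called. By sex, 30 of 37 were higher in males (median 0.11) and 27 of 37 lower in females (median -0.07). The females minus males difference had 31 of 37 below 0 (median -0.18), with no gene called. Over all genes the 3 medians were 0.0092, -0.0012 and -0.0047. The members, read in the same libraries, had 8 of 10 below 0, and doses differed between the sexes. Genes read in the same libraries are not independent observations, so these counts are descriptions. The identity counts rested in part on 3 male libraries, WT CBD replicate 1, Fmr1 KO CBD replicate 5 and Shank3 KO CBD replicate 6, singled out after their values were seen. Their mean log2 CPM over these genes was 5.729 to 5.74. It was 5.399 to 5.555 in the other 6 male CBD libraries and 5.287 to 5.569 in the 9 male vehicle libraries. Shank3 was also the highest of its group in each of these 3 libraries. Without them, 20 of 37 identity genes had higher values in males (median 0.01), 24 of 37 were below 0 for the sex difference (median -0.09), and 11 of 37 were higher for the mean CBD effect (median -0.03). That last count turned from mostly higher to mostly lower. The sex difference had 31 of 37 below 0 (median -0.22) without the 8 libraries of high striatal markers. Among 15 genes of glutamate and potassium handling 10 were higher for the mean CBD effect (median 0.01), and among 16 genes of endfeet and gap junctions 10 were (median 0.01). Gjb6, the second astrocyte connexin, was at 0.11 (adjusted p = 1), and Mlc1, an endfoot membrane protein, at 0.03 (adjusted p = 1). Apoe, the main lipid carrier of astrocytes, was at 0.06, Aldoc, a glycolytic enzyme, at 0.10, and Stat3 at 0.07 (adjusted p = 1 for each). Mt1 and Mt2, the metal-binding metallothioneins, were at 0.02 and 0.26, and Nes, a progenitor filament, was at 0.00 (adjusted p = 1 for each). Slc2a1, the glucose transporter of endothelium and astrocytes, had the smallest p of 21 metabolic genes (0.20, unadjusted p = 0.00409, adjusted p = 1).

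Under vehicle, the same lists gave small values in both KO lines. In Shank3 KO against WT mice, 27 of 37 identity genes had lower values (median -0.06), led by Slc15a2, a peptide transporter, at -0.37 (unadjusted p = 0.00685, adjusted p = 0.853), and without the 8 libraries 20 of 37 had (median -0.01). Of 17 genes of radial glia and progenitors, 10 had higher values (median 0.05), led by Riiad1 at 0.45 (adjusted p = 0.853), which was named by its p. All 12 ependymal markers were higher in the same comparison (median 0.54), none called, with summed levels of 67.1 to 164 CPM in Shank3 KO and 46.3 to 108 in WT vehicle mice. Their part in the progenitor values was not tested. In Fmr1 KO against WT mice, 16 of 37 identity genes had higher values and 21 lower (median -0.01), which became 26 and 11 without the 8 libraries (median 0.04). Dio2, the astrocyte enzyme that activates thyroid hormone, was at 0.19 under vehicle (adjusted p = 1) and 0.34 under CBD (unadjusted p = 0.00358, adjusted p = 0.654).

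Many pairs of members moved together from animal to animal. After group and sex means were removed from log2 CPM, 25 of the 45 pairs of members correlated over the 36 libraries past an adjusted p of 0.05 (permutation test, 100000 permutations, adjusted over the 45 pairs), 22 positively and 3 negatively. The libraries also differ in tissue markers and depth, so these are descriptions. The share of pairs of other genes that would pass was not counted, so the 25 are not read as particular to astrocyte genes. Among genes that are not members, r with Gfap reached 0.869 (Serpina3n) and 0.857 (Sbf1), above its highest value with a member, 0.761 (Glul). The closest pair was Slc1a2 and Slc1a3, with Pearson's r = 0.865 (adjusted permutation p = 5.6e-05, from the smallest p of 1e-05 the permutations can give) and Spearman's rho = 0.865. It was 0.825 without the 2 libraries farthest out in Slc1a2, and 0.857, 0.839 and 0.912 within the 12 WT, 12 Fmr1 KO and 12 Shank3 KO libraries. Gja1 and Glul followed (r = 0.842, rho = 0.714, adjusted permutation p = 5.6e-05; 0.777 without the 2 farthest libraries), with 0.812, 0.897 and 0.813 within the genotypes. Aqp4 and Kcnj10, the water and potassium channels of the endfoot, reached r = 0.716 (rho = 0.666, adjusted permutation p = 5.6e-05) and 0.714 without the 2 farthest.

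Gfap correlated with homeostatic genes as well as with Vim. Its r was 0.761 with Glul (rho = 0.708, adjusted permutation p = 5.6e-05; 0.708 without the 2 farthest libraries) and 0.662 with Aqp4 (rho = 0.632, adjusted permutation p = 0.00013; 0.63 without them). With Vim it was 0.648 (rho = 0.462, adjusted permutation p = 0.00013; 0.72 without them), made up of 0.888 within WT, 0.778 within Fmr1 KO and 0.189 within Shank3 KO libraries. Whether these 3 values differ was not tested. Vim and Glul passed in the pooled libraries (r = 0.461, adjusted permutation p = 0.011) but rested on the ends of the range, with rho = 0.197 (adjusted permutation p = 0.35), 0.193 without the 2 farthest libraries and -0.305 within Shank3 KO mice.

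S100b and Aldh1l1 stood aside from the other 8. S100b correlated with Aldh1l1 (r = 0.579, rho = 0.591, adjusted permutation p = 0.00048; 0.567 without the 2 farthest libraries), and negatively with Slc1a2 (r = -0.614, rho = -0.578, adjusted permutation p = 0.00029; -0.574 without them). It was negative as well with Slc1a3 (r = -0.564, rho = -0.553, adjusted permutation p = 0.00082; -0.533 without them) and with Glul (r = -0.428, rho = -0.29, adjusted permutation p = 0.016; -0.375 without them). The sign with Slc1a2 was the same in each genotype, -0.656 in WT, -0.585 in Fmr1 KO and -0.587 in Shank3 KO libraries. S100b and Aldh1l1 are the members with the largest shares of exon bases under other genes, and the part of this in their correlation was not tested.

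**Figure D4:**
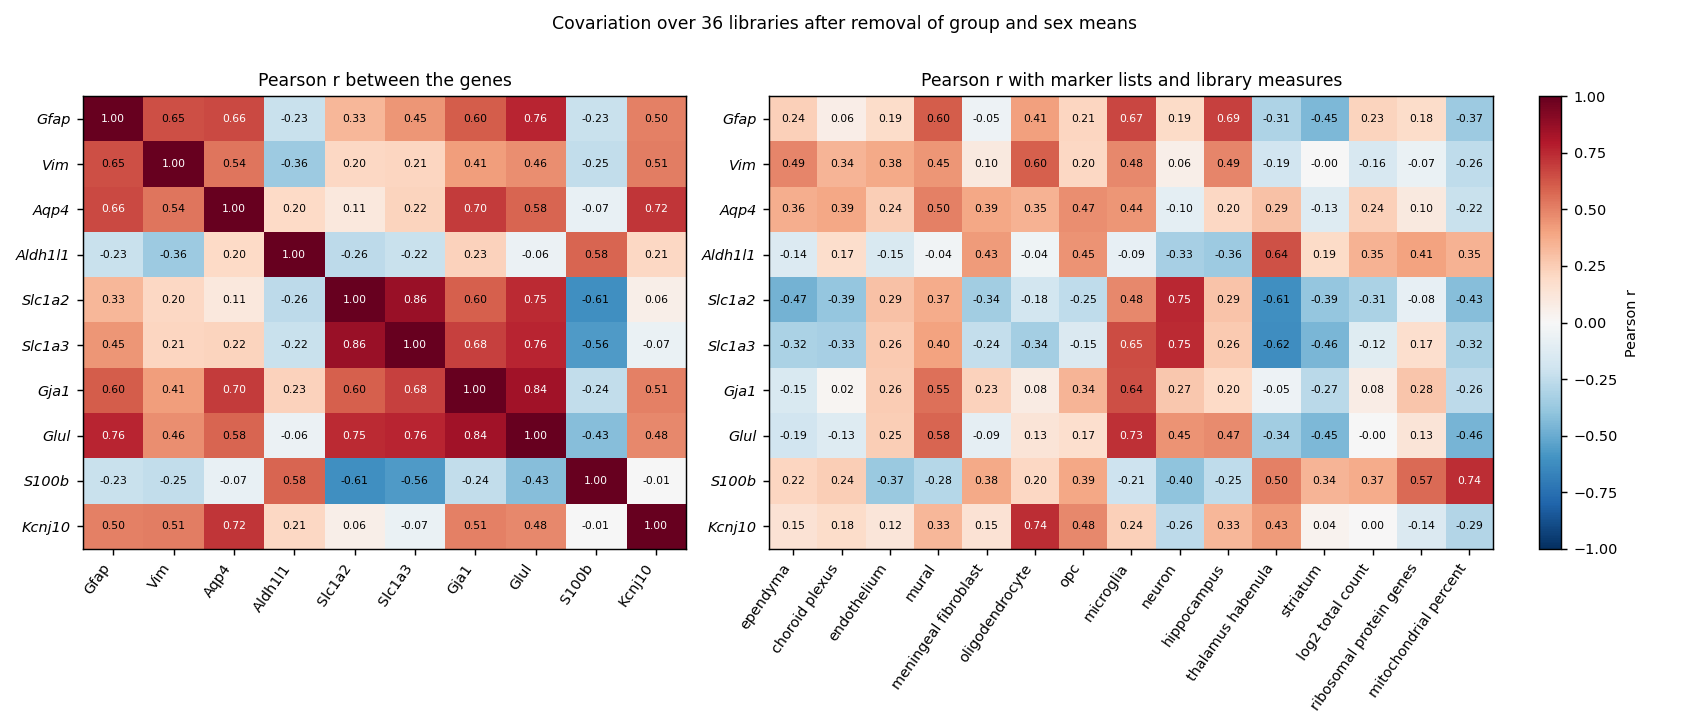
Pearson r over 36 libraries of log2 CPM with group and sex means removed, between the 10 genes (left) and with the mean of each marker list and 3 library measures (right), blue to red from -1 to 1. Slc1a2, Slc1a3, Gja1, Glul, Gfap and Aqp4 form a mostly red block, S100b is blue against the transporters, and Kcnj10 is red with oligodendrocyte markers.

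Members also varied with markers of other cell types. Of 150 pairs of a member with 1 of 15 marker lists or library measures, 38 passed an adjusted permutation p of 0.05. The share for genes other than the members was not counted. Kcnj10, which oligodendrocytes also express, varied with 17 oligodendrocyte markers (r = 0.74, rho = 0.726, adjusted permutation p = 0.00033), with 0.626 without the 2 farthest libraries and 0.528, 0.913 and 0.62 within WT, Fmr1 KO and Shank3 KO mice. Vim correlated with them too (r = 0.601, rho = 0.573, adjusted permutation p = 0.0015; 0.458 without them). Slc1a2 and Slc1a3 followed 10 neuronal markers (r = 0.75 and 0.748, rho = 0.75 and 0.752, adjusted permutation p = 0.00025 for both; 0.654 and 0.751 without the 2 farthest) and went against markers of thalamus and habenula (r = -0.613 and -0.621, rho = -0.572 and -0.565, adjusted permutation p = 0.00045 and 0.0012; -0.47 and -0.654 without them). Aldh1l1 went with those markers (r = 0.636, rho = 0.568, adjusted permutation p = 0.00055; 0.665 without them).

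Gfap followed hippocampal neuron markers (r = 0.685, rho = 0.521, adjusted permutation p = 0.00033; 0.581 without the 2 farthest libraries) and microglial markers (r = 0.669, rho = 0.66, adjusted permutation p = 0.00025; 0.654 without them). Glul followed the 8 tested microglial markers too (r = 0.732, rho = 0.665, adjusted permutation p = 0.00025; 0.643 without them). In all, microglial markers passed by Pearson's r with 7 members, all but Aldh1l1, S100b and Kcnj10, with r from 0.444 (Aqp4) to 0.732. Spearman's rho passed for 5 of the 7, not for Vim and Aqp4. Mural cell markers passed by Pearson's r with Gfap (0.602), Glul (0.585), Gja1 (0.553), Aqp4 (0.501) and Vim (0.445). The Vim value did not pass by rho (0.261) and was 0.158 without the 2 farthest libraries. Striatal markers went against Slc1a3 (r = -0.458), Glul (-0.449) and Gfap (-0.447), with an adjusted permutation p of 0.029 for each. By rho, of these only Gfap passed (-0.437, adjusted permutation p = 0.045). Vim was at r = -0.004 with them, and S100b at 0.341, which did not pass. The part of these marker lists in the members' covariation was not tested. S100b correlated with the share of mitochondrial counts (r = 0.736, rho = 0.716, adjusted permutation p = 0.00025; 0.701 without the 2 farthest libraries), at 0.726, 0.68 and 0.798 within the 3 genotypes. With log2 total count no member passed, and r lay between -0.314 (Slc1a2) and 0.37 (S100b).

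**Figure D5:**
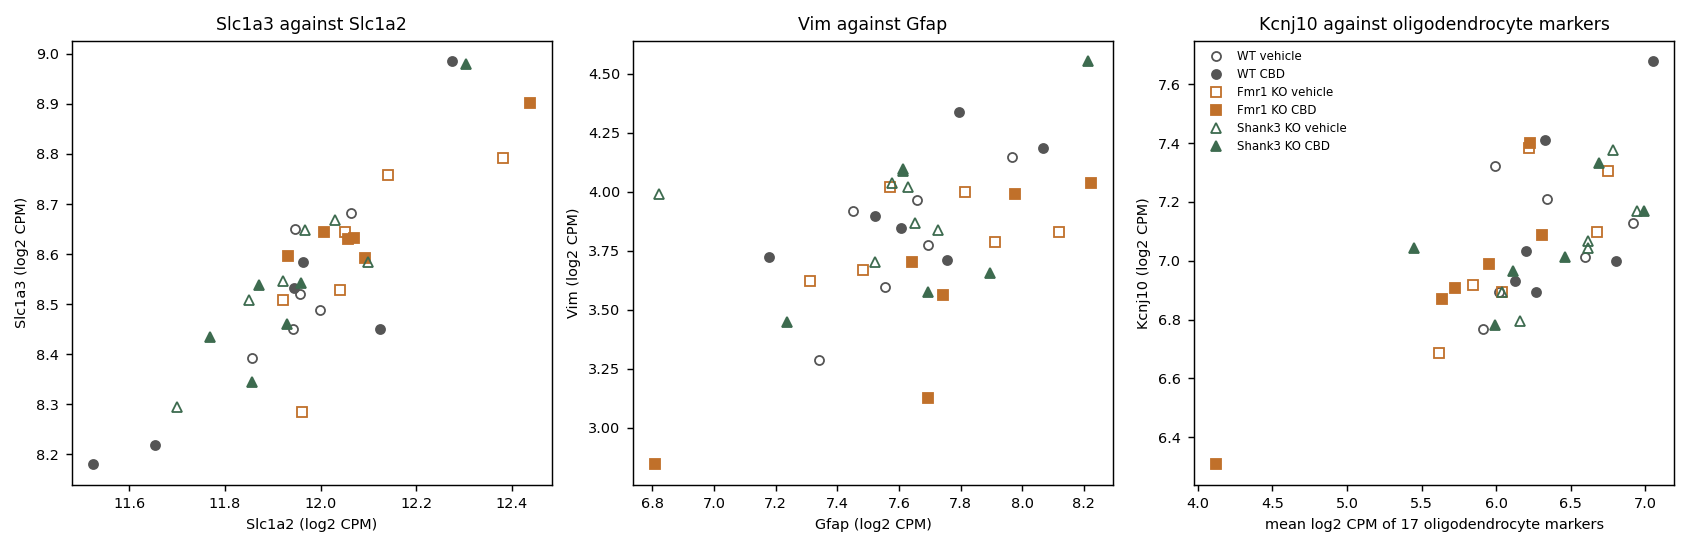
Log2 CPM in 36 libraries of Slc1a3 against Slc1a2 (left), Vim against Gfap (middle) and Kcnj10 against the mean log2 CPM of 17 oligodendrocyte markers (right), open symbols vehicle, filled symbols CBD. Slc1a2 and Slc1a3 lie along 1 line in all groups, and Fmr1 KO CBD replicate 3 lies at the low end of the middle and right panels.

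The genes most like Gfap over the 36 libraries, among 11332 others with a mean of at least 5 CPM, were led by Serpina3n (r = 0.869), a reactive astrocyte gene. Sbf1 (0.857), Slc41a1 (0.855), Mms19 (0.847), Fgfr1 (0.84), Napa (0.839), Arfgap2 (0.828) and Mcur1 (0.828) followed. For the mean of the 8 homeostatic members the closest were Ndrg2 (0.867), a gene of mature astrocytes, Capn2 (0.85), Pink1 (0.829), Eif2s3x (0.824), Scarb2 (0.824), Ina (0.822), Poldip2 (0.819) and Cplx1 (0.818). Ina and Cplx1 are neuronal genes. With the library of lowest total count left out, 4 of the 8 for Gfap and 5 of the 8 for the homeostatic mean were again among the closest. Without removal of group and sex means, 2 and 4 were.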

How the data were processed

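Per the labels, total RNA was extracted from hippocampal tissue with Trizol and a column kit, and libraries were made by a sequencing facility. The values deposited by the authors are unnormalized counts, 1 whole number per gene and library. FastQC, STAR 2.7.11b, build GRCm39 and featureCounts 2.0.8 are named in the submitters' processing notes. The sources used here do not give the annotation release or whether reads were counted by strand. Library totals ran from 11655697 to 33228089, so genes with few counts are the least precise. P-values measure only the spread between these animals' libraries. The deposited gene length matched the whole gene span within 5% for 98.1% of 20322 protein-coding genes with introns. Sex was read from the deposited metadata sheet, not the labels. Each library carried its own animal code. WT libraries shared a code prefix with Fmr1 KO mice except WT CBD replicate 1, and Shank3 KO mice had another. In comparisons of Shank3 KO mice with WT or Fmr1 KO mice, prefix and genotype therefore cannot be told apart.

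Symbols came from a table that named 51498 identifiers with 99% of the counts. The analysis used edgeR 4.0.16 under R 4.3.3. Its filterByExpr by group left 21172 genes with 99.9% of the counts, libraries were scaled by TMM, and a quasi-likelihood model with 1 coefficient per group and a sex term was fitted to all 36 libraries. A second model had 1 coefficient per genotype, treatment and sex. Tests were two-sided, p-values were Benjamini-Hochberg adjusted over all genes tested, and a gene was called under 0.05. Levels are CPM on TMM-scaled library sizes. Standard errors came from the fitted information matrix scaled by the moderated variance. Correlations used log2 CPM with a prior count of 2. The models were tested on simulated counts.

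The members and gene lists were chosen with earlier results of these data known. By the rule for named genes, the text names the members, called list genes, list genes of smallest p, a fixed set of astrocyte genes and the 8 genes most like Gfap and the homeostatic mean. Replicate numbers were checked for pairing and do not pair the animals. Alternatives were DESeq2 1.42.0 size factors, its Wald test, no filter, a filter of 10 counts in 30 libraries, limma 3.58.1 voom with quality weights, no sex term, a replicate block, a fit of the compared groups alone, and leaving out 1 library at a time. Chosen after seeing the data were leaving out the 8 libraries whose mean log2 CPM of striatal markers was above 3, a narrower set of 6 of them tried first, 3 male CBD libraries of high levels (for the lists), and exon bases of an older annotation as length. Raw library totals were an alternative for levels alone, with no test.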

Additional observations from a re-analysis of the deposited data

Results flagged for a closer look

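In 10 of the 60 sets of 6 libraries (10 genes in 6 groups), 1 library stood apart from the other 5 by a gap test. Chance meets it in about 1 set in 20 if values are normally distributed, which was not checked for CPM. The share for other genes was not counted, so the 10 sets are not read as particular to the members. Gfap was at 113 CPM in Shank3 KO vehicle replicate 2, with the next at 184; this library had the lowest total count. Aqp4 was at 153 CPM in Fmr1 KO vehicle replicate 3, with the next at 120. The other 8 sets were all in CBD groups and all had a high library. Shank3 KO CBD replicate 6 gave 4 of them, with Slc1a2 at 5055 CPM (next 3980), Slc1a3 at 505 (next 373), Gja1 at 185 (next 144) and Glul at 1160 (next 891). Fmr1 KO CBD replicate 5 gave 2, with Slc1a2 at 5550 CPM (next 4368) and Slc1a3 at 478 (next 400). WT CBD replicate 1 gave 2, with Gja1 at 196 CPM (next 149) and Glul at 1200 (next 871). All 3 of these libraries were from males. They had 1.38%, 1.51% and 1.82% mitochondrial counts in that order, and WT CBD replicate 1 is the WT library whose animal code differed. Neither was tested as a cause. Each of the 3 also had the highest Shank3 level of its group, at 218, 385 and 391 CPM in the same order. High levels there were thus not limited to the members. The mean log2 CPM of 10 neuronal markers was the highest of its group in Fmr1 KO CBD replicate 5 (9.463) and WT CBD replicate 1 (9.368). In Shank3 KO CBD replicate 6 (9.345) it was not. Genes that correlate over libraries give such sets together, so the 10 sets are not independent.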

How the results depend on the processing

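No member was called under any alternative that had a test. Under 10 other settings, 1440 member values gave 0 calls; 124 had the opposite sign, and 26 moved by more than their SE, by at most 0.253 on the log2 scale. Leaving out each of 36 libraries in turn gave 2700 values and 0 calls, 306 of the opposite sign and 4 moved by more than the SE; the largest shift was 0.168. Beyond those in the report, leaving out the 8 libraries of high striatal markers moved Slc1a2 and Slc1a3 to 0.11 and 0.11 for CBD in WT mice, and Slc1a2 to -0.11 in Shank3 KO against WT under CBD. It moved the CBD effect difference between Fmr1 KO and WT mice to 0.03 for Kcnj10 and -0.08 for Slc1a3. Vim moved to 0.18 for CBD in Shank3 KO mice, 0.08 for the difference of that effect from WT, 0.07 for CBD in males and -0.08 for the difference between the sexes, and Aldh1l1 to 0.08 in vehicle females against males. A set of 6 of these libraries also gave 0 calls. Vim was -0.22 for CBD in males without Fmr1 KO CBD replicate 5, and Vim in Fmr1 KO mice given CBD against vehicle was -0.40 without it (adjusted p = 0.999, edgeR). Slc1a3 in Shank3 KO against WT under CBD was 0.16 without WT CBD replicate 1. The cause was not tested. Lcn2 ran from 2.635 to 2.99 over the 3 genotypes, called in 36 of 36 fits without a library, and from 2.64 to 3.08 in females, called in 18 of 18. With adjusted p from 8.25e-10 (DESeq2) to 0.0591 (edgeR without the sex term) over the genotypes and from 2.62e-06 (DESeq2) to 0.191 (edgeR without the 8 libraries) in females, 7 of 8 and 5 of 8 other settings kept its call; the filter of 10 counts in 30 libraries removed it.

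Replicate numbers are shared between groups but did not pair the animals: over 90 same-number pairs the median correlation of deviations from the group means was 0.018 (from -0.395 to 0.404), and 9 of 36 libraries correlated best with their own number. With the replicate number as a block, 0 members were called in each of the 15 comparisons. Lcn2 stayed called with the block (2.79, adjusted p = 0.000121, and in females adjusted p = 0.0118; edgeR). In vehicle females against males, the block moved Aqp4 to -0.11, Aldh1l1 to -0.10 and Gja1 to -0.11, all uncalled. For genes with few counts, such as Lcn2, depth limits precision most.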

Other observations

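Among markers of other cell types, some lists had values mostly on 1 side of 0. For the mean CBD effect, all 12 ependymal markers (median -0.37), all 14 choroid plexus markers (median -0.47) and all 17 oligodendrocyte markers (median -0.15) had lower values, none of them called by edgeR. By genotype the direction was not the same. In Fmr1 KO mice 11 of 12, 14 of 14 and 17 of 17 had lower values with CBD (medians -0.46, -0.99 and -0.42) and in Shank3 KO mice all did (medians -0.49, -1.11 and -0.19). In WT mice 14 of 14 choroid plexus and 15 of 17 oligodendrocyte markers had higher values (medians 0.59 and 0.17), and ependymal markers were split, 6 of 12 each way. Gene by gene, the difference of the CBD effect from WT had 0 genes called for Fmr1 KO and 0 for Shank3 KO mice (edgeR). The lists as sets were not tested. Without the 8 libraries of high striatal markers the mean CBD effect had medians of -0.48, -0.59 and -0.09, with 12 of 12, 14 of 14 and 14 of 17 lower. Summed levels of choroid plexus markers ran from 107 to 5224 CPM over the libraries, and ependymal markers from 14.8 to 169. Of 13 meningeal fibroblast markers, 12 had higher values (median 0.34), and of 8 microglial markers 7 had (median 0.10), led by C1qa at 0.20 (adjusted p = 1). Vwf, the endothelial gene of von Willebrand factor, was the 4th gene called for the mean CBD effect, at 0.59 (SE 0.107, adjusted p = 0.0409, edgeR), and was named after its values were seen. Its call was lost with a filter of 10 counts in 30 libraries (adjusted p = 0.0878), without the sex term (0.763) and with replicate number as a block (0.0639). It was called without the 8 libraries (0.68, adjusted p = 0.0254, edgeR) and in 15 of 36 fits without 1 library. Of 12 tested endothelial markers, 8 had higher values (median 0.06), led by Cdh5 at 0.24 (adjusted p = 1).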
